A study of Mus musculus with 6 samples.

Results

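Markers of pericytes, the contractile cells that wrap capillaries, were measured in whole fetal mouse lung together with the genes of the potassium channel these cells carry. The 8 genes are Abcc9, Kcnj8, Pdgfrb, Notch3, Cspg4, Rgs5, Higd1b and Cox4i2. They were taken by gene symbol from the deposited table, which lists 55359 genes, and each symbol stood on a single row. The libraries are poly(A) RNA-seq of E18.5 lungs from C57 mouse embryos, 3 labelled Prmt5 knockdown and 3 labelled WT. The Prmt5 protein is an arginine methyltransferase that makes symmetric dimethylarginine. The series text speaks of a knockout in the lung mesenchyme and names Dermo1 (Twist2), while the sample labels say knockdown. The growth protocol limits the knockdown to lung mesenchymal cells. The alleles, the litters, and whether WT embryos carried any part of the targeting system are not stated, and neither is whether lungs were pooled.

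The targeted gene is the check of these labels. Prmt5 stood at 39.4, 47.6 and 46.7 CPM (counts scaled to a common library size) in knockdown-labelled replicates 1 to 3, against 46.6, 47.1 and 48.1 CPM in wild type replicates 1 to 3. The groups overlapped, and the log2 fold change of -0.08 did not pass edgeR's quasi-likelihood test (Benjamini-Hochberg adjusted p = 0.682). Counts per gene do not resolve a deleted exon, and other cells of the lung make Prmt5. Twist2, the gene named in the series text, had 1.05, 0.92 and 1.48 CPM in knockdown-labelled replicates 1 to 3, against 2.59, 2.04 and 3.07 CPM in wild type replicates 1 to 3. Its groups did not overlap, and its log2 fold change of -1.14 had an edgeR adjusted p of 0.163. The groups are therefore called knockdown-labelled and wild type, and each direction below rests on the labels. Totals ran from 14390202 to 19262837 counts in knockdown-labelled libraries and from 14383415 to 16358478 in wild type ones. Lung identity genes were abundant in all 6 libraries, with a sum over 10 genes of 13802 to 16649 CPM in knockdown-labelled and 13725 to 16553 CPM in wild type lungs. More than any other gene, the surfactant gene Sftpc made up that sum, with 9394 ± 976 CPM in knockdown-labelled and 8805 ± 947 CPM in wild type lungs (SD, n = 3 each). Of the 10 genes 5 were positive and 5 negative, 0 passed the edgeR test, and DESeq2 called 3 lower, where it called 2.72% of all genes lower. Ager, Foxf1 and Tbx4 had groups that did not overlap, all lower, where 12.4% of all tested genes were non-overlapping and lower. Their log2 fold changes were -0.56, -0.64 and -0.43 (edgeR adjusted p = 0.116, 0.128 and 0.154). RNA of heart muscle differed widely between libraries: the sum over 24 heart muscle genes was 5073, 14894 and 4460 CPM in knockdown-labelled replicates 1 to 3, and 618, 735 and 3699 CPM in wild type replicates 1 to 3. By Xist and Ddx3y counts, 2 of 3 knockdown-labelled and 1 of 3 wild type embryos were male. Nothing in the labels says that the lungs came from separate litters, so p-values measure only the scatter among these libraries, part of which may be technical.

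Pericytes share the basement membrane of capillaries with the endothelium. They are recruited to new vessels by PDGF-B from endothelial cells, which binds the receptor encoded by Pdgfrb, and they are kept in a mural state by Notch3, whose cleaved form acts on DNA through the protein RBPJ. Many pericytes carry an ATP-sensitive potassium (K-ATP) channel built of the pore protein Kir6.1, from Kcnj8, and the sulfonylurea receptor SUR2, from Abcc9. The channel opens when ATP is low, which hyperpolarises the cell and relaxes the vessel. SUR2 is also made in heart and skeletal muscle, where it pairs with another pore protein, Kir6.2, from Kcnj11. Abcc8 encodes the related receptor SUR1. In bulk RNA, fewer cells of a type and less RNA per cell cannot be told apart.

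Kcnj8 and Abcc9 lie next to each other on chromosome 6, and their start regions are shown because these neighbours, whose products form 1 channel, gave different values in the comparison below. In the table's coordinates, whose build is not given in the sources used here, Kcnj8 (ENSMUSG00000030247) spans 142510563 to 142517340 and Abcc9 (ENSMUSG00000030249) spans 142533588 to 142648041, both on the minus strand, with 16247 bases and 0 other listed genes between them. RefSeq start regions (250 bases before to 50 after the start, GRCm38.p6) were found for 5 of the 8 genes, namely Rgs5, Kcnj8, Abcc9, Cspg4 and Notch3. Their coordinates are not those of the table: laid on it, the Kcnj8 and Abcc9 start regions would fall outside their genes' spans. The sequences run 5′ to 3′ on the gene's strand, chr6:142571565-142571864 (minus strand) for Kcnj8 and chr6:142702225-142702524 (minus strand) for Abcc9, and capitals mark the RBPJ core TGGGAA.
Kcnj8: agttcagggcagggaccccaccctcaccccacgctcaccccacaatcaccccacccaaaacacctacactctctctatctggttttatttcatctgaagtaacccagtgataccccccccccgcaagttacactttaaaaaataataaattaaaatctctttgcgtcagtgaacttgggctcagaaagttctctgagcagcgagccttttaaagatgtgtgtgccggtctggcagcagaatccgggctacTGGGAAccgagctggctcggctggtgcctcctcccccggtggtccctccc
Abcc9: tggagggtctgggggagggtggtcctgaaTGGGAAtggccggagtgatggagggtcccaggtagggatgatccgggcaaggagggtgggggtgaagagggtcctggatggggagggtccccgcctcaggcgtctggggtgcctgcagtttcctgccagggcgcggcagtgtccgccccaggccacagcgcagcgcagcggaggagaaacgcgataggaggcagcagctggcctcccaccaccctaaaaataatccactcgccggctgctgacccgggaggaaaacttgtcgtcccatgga
The core stood at position 1 in Kcnj8, the start site itself, and at position -221 in Abcc9. Searched as TGGGAA on both strands, it occurred in these 2 of the 5 regions and in 25.6% of the 32851 RefSeq start regions, so its presence is common. Neither region held a CArG box, the binding sequence of serum response factor, which occurred in 1.63% of all start regions. The hypoxia response cores were searched as ACGTG and GCGTG on both strands: ACGTG was in the Notch3 region (19.6% of all regions hold it), and GCGTG in those of Kcnj8, Cspg4 and Notch3 (32.4% of all regions). The Abcc9 region was richer in G and C (65.7%, 16 CpG) than the Kcnj8 region (53.3%, 9 CpG).

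The other 6 genes are scattered over the genome: in the table's coordinates Pdgfrb lies on chromosome 18 (61178222 to 61218133), Notch3 on chromosome 17 (32339794 to 32385826), Cspg4 on chromosome 9 (56772317 to 56807154), Rgs5 on chromosome 1 (169483070 to 169523382), Higd1b on chromosome 11 (102726675 to 102728866) and Cox4i2 on chromosome 2 (152596093 to 152606957). The 8 genes spanned a wide range of levels. FPKM, which takes out gene length, is used to compare genes. In knockdown-labelled lungs the order of mean FPKM was Pdgfrb (43.5 ± 2.63), Cox4i2 (38.7 ± 2.01), Higd1b (36.1 ± 10.3), Notch3 (18.46 ± 1.71), Rgs5 (17.4 ± 6.42), Abcc9 (9.41 ± 0.558), Kcnj8 (8.98 ± 2.17) and Cspg4 (7.18 ± 0.785; SD, n = 3). In wild type lungs it was Pdgfrb (54.1 ± 3.98), Cox4i2 (46.3 ± 5.11), Higd1b (45.5 ± 5.21), Notch3 (19.9 ± 1.54), Rgs5 (11.8 ± 3.88), Kcnj8 (9.50 ± 1.79), Cspg4 (7.01 ± 1.14) and Abcc9 (6.12 ± 0.231; SD, n = 3). Abcc9 was thus last in wild type and sixth in knockdown-labelled lungs. In wild type lungs the ranges of neighbours in this order overlapped, except those of Higd1b and Notch3 and of Notch3 and Rgs5. In knockdown-labelled lungs they overlapped except those of Pdgfrb and Cox4i2, of Higd1b and Notch3, and of Rgs5 and Abcc9.

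The comparison asks whether the RNA of these genes differs when Prmt5 is targeted in the lung mesenchyme. Abcc9 had higher values in every knockdown-labelled lung than in every wild type lung, 1.53-fold on average. Pdgfrb and Cox4i2 had lower values in every knockdown-labelled lung. Kcnj8, Notch3, Cspg4, Rgs5 and Higd1b overlapped between the groups. In edgeR's quasi-likelihood test with Benjamini-Hochberg adjustment over the 17728 genes tested, 0 of the 8 passed an adjusted p of 0.05, where 0.0338% of all tested genes passed. At an unadjusted p under 0.05 there were 3 of 8 (1 higher, 2 lower), against a background of 17.0%. Groups did not overlap for these same 3 genes, against 23.2% of all tested genes. DESeq2 called 2 of the 8, Abcc9 and Pdgfrb, where it called 4.82% of all genes. The median log2 fold change of the 8 was -0.11, against 0.01 over all genes tested.

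**Figure D1:**
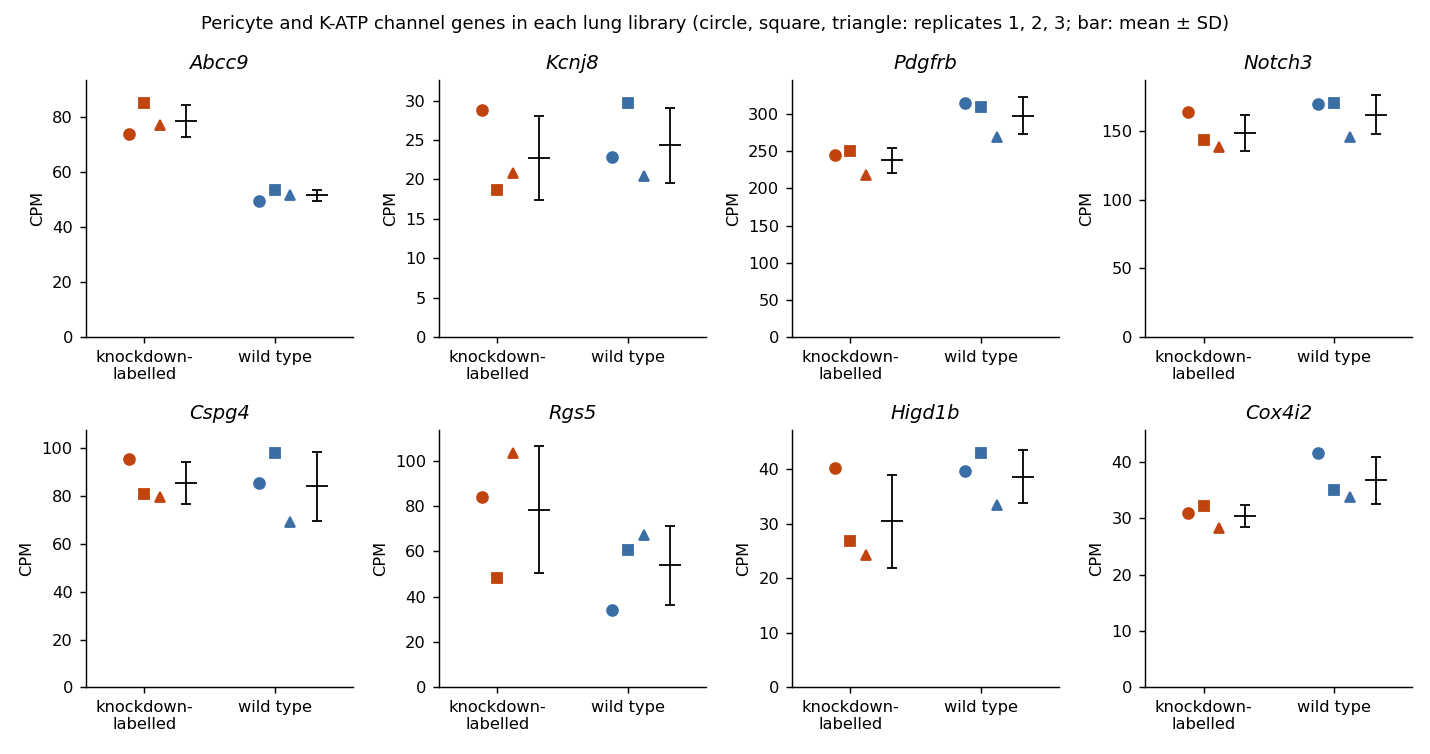
CPM (y axis, from 0) of each of the 8 genes in the knockdown-labelled (orange, left) and wild type (blue, right) lung libraries, with the mean ± SD beside the points. Only Abcc9 has all 3 knockdown-labelled points above the wild type ones, and only Pdgfrb and Cox4i2 have all 3 below them.

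The genes of the K-ATP channel pair gave different values. Abcc9, the receptor subunit, had 73.7, 85.0 and 76.9 CPM in knockdown-labelled replicates 1 to 3, against 49.4, 53.4 and 51.5 CPM in wild type replicates 1 to 3. The lowest knockdown-labelled value was above the highest wild type value, and both groups were tight, with coefficients of variation of 7.38% in knockdown-labelled and 3.91% in wild type lungs. The log2 fold change was 0.61 (SE 0.08, 95% confidence interval 0.42 to 0.80) with an edgeR adjusted p of 0.0795, the 26th smallest p among all genes tested. Its call changed with the tool: DESeq2 gave an adjusted p of 1.09e-06, limma-voom with library weights 0.0467 and edgeR with no filter on low counts 0.0255, while leaving out single libraries gave edgeR adjusted p-values of 0.0835 to 0.489 at log2 fold changes of 0.55 to 0.66.

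Kcnj8, the pore subunit, had 28.8, 18.7 and 20.8 CPM in knockdown-labelled replicates 1 to 3, against 22.8, 29.7 and 20.4 CPM in wild type replicates 1 to 3. The groups overlapped throughout, and the highest values stood in knockdown-labelled replicate 1 and wild type replicate 2. The log2 fold change of -0.09 had a 95% confidence interval of -0.57 to 0.38 (edgeR adjusted p = 0.863), which leaves room for a difference of that size in either direction. Leaving out replicate 2 of either group turned its sign (0.03 without the knockdown-labelled one, 0.07 without the wild type one).

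Within a library, the FPKM ratio of Abcc9 to Kcnj8 was 0.779, 1.38 and 1.12 in knockdown-labelled replicates 1 to 3 and 0.658, 0.547 and 0.767 in wild type replicates 1 to 3. The groups did not overlap, but the lowest knockdown-labelled and the highest wild type ratio were close. The log2 ratio averaged 0.09 ± 0.42 in knockdown-labelled and -0.62 ± 0.24 in wild type lungs (SD, n = 3 each), a difference of 0.71. An exact two-sided permutation test gave p = 0.1, the smallest that 3 against 3 libraries allow, and 0.125 adjusted over the 5 ratios examined.

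**Figure D2:**
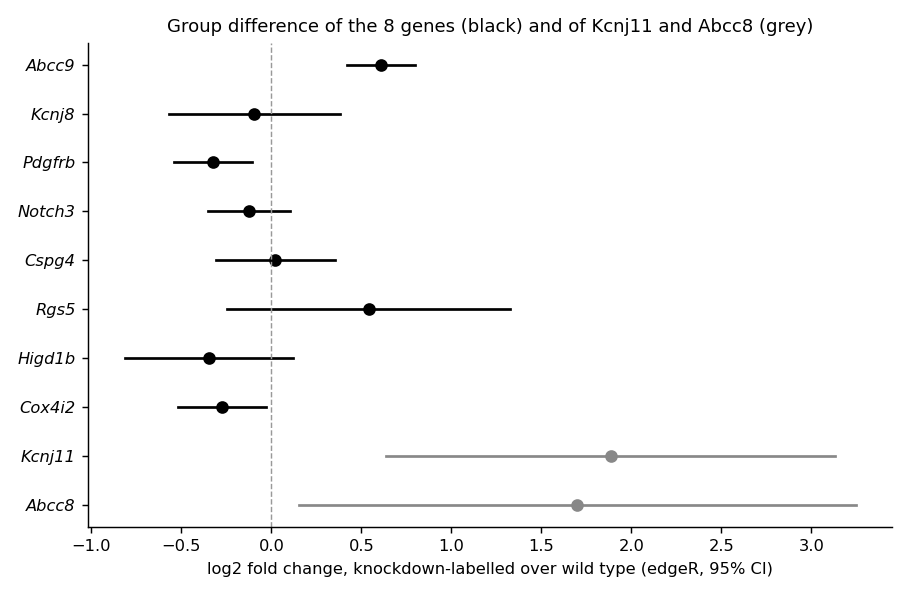
Log2 fold change of knockdown-labelled over wild type lungs (x axis) with its 95% confidence interval from edgeR, for the 8 genes (black) and the other K-ATP subunit genes Kcnj11 and Abcc8 (grey). Abcc9 at 0.61 lies apart from its channel partner Kcnj8 at -0.09, and the widest interval among the 8 is that of Rgs5.

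The K-ATP genes typical of other tissues were highest where heart muscle RNA was highest. Kcnj11 had 8.98, 18.8 and 10.5 CPM in knockdown-labelled replicates 1 to 3, against 2.28, 1.69 and 6.32 CPM in wild type replicates 1 to 3. Abcc8 had 14.9, 23.5 and 11.1 CPM in knockdown-labelled replicates, against 1.97, 2.39 and 10.8 CPM in wild type replicates. For both genes the highest value was in knockdown-labelled replicate 2 and the highest wild type value in replicate 3, the libraries with the most heart muscle RNA of their groups. Neither passed the edgeR test (log2 fold changes of 1.89 and 1.70, adjusted p = 0.178 and 0.265). With heart muscle level as a covariate the log2 fold changes were 0.47 and 0.03, but that level cannot be told apart from the label here. Kcnj8 made up 82.2%, 59.0% and 74.1% of the summed FPKM of both pore genes in knockdown-labelled lungs and 93.5%, 96.2% and 82.4% in wild type lungs. For Abcc9 among both receptor genes these shares were 82.7%, 77.8% and 87.0% in knockdown-labelled and 96.1%, 95.6% and 82.2% in wild type lungs.

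Abcc9 is also a heart gene, so its values are set beside the heart muscle sums given above. Within wild type, replicate 3 had 3699 CPM of heart muscle genes against 618 and 735 CPM in replicates 1 and 2, while Abcc9 was 51.5 CPM there against 49.4 and 53.4 CPM. Among knockdown-labelled lungs, replicate 2, with 14894 CPM of heart muscle genes, had the highest Abcc9. Without it the log2 fold change was 0.55, and with heart muscle level as a covariate it was 0.52 (edgeR adjusted p = 0.704). The sum was higher in each knockdown-labelled library than in any wild type one, so heart muscle level and the label cannot be told apart here. The 24 heart muscle genes were positive in 24 of 24 cases with a median log2 fold change of 2.25, and 18 did not overlap between the groups, all higher (10.8% of all tested genes were non-overlapping and higher). Of the 24, 0 passed over all genes in edgeR, 17 were higher at an unadjusted p under 0.05 (8.48% of all tested genes were), and DESeq2 called 0. Skeletal muscle genes, 12 of 12 tested, summed to 825, 128 and 3992 CPM in knockdown-labelled and 304, 83.9 and 1667 CPM in wild type replicates. All 12 were positive, where 9375 of the 17728 tested genes were, with a median log2 fold change of 1.27. None had an unadjusted p under 0.05, and 0 passed in edgeR or DESeq2. The skeletal muscle sum was low in knockdown-labelled replicate 2, where Abcc9 was highest. The part of skeletal muscle in the Abcc9 values was not tested. Counting by gene leaves the SUR2A and SUR2B forms of Abcc9 unseparated.

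**Figure D3:**
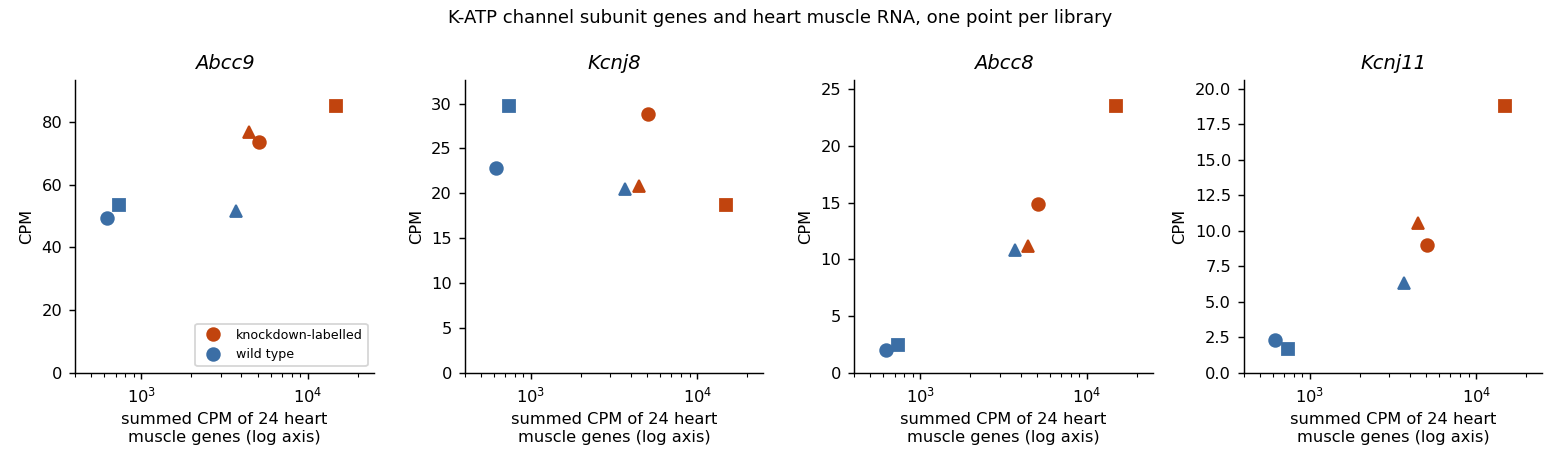
CPM of the 4 K-ATP subunit genes (y axis, from 0) against the summed CPM of 24 heart muscle genes (x axis, log scale), 1 point per library, knockdown-labelled in orange and wild type in blue, circles, squares and triangles for replicates 1 to 3. Abcc9 is at 49.4 to 53.4 CPM in wild type lungs at low and high heart muscle sums, while Abcc8 and Kcnj11 are highest where the sum is highest.

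The neighbours of the pair on chromosome 6 were looked up after the values were seen. Among the 3 nearest tested genes on each side, Ldhb, a lactate dehydrogenase gene abundant in heart, had 133 ± 52.0 CPM in knockdown-labelled and 69.5 ± 9.39 CPM in wild type lungs (SD, n = 3 each; edgeR adjusted p = 0.178). The nearest gene on the Abcc9 side, Cmas, had 56.1 ± 11.4 CPM in knockdown-labelled and 51.1 ± 2.82 CPM in wild type lungs, with a log2 fold change of 0.13. None of the 6 neighbours passed the edgeR test, and Ldhb alone had groups that did not overlap (23.2% of all tested genes).

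Of the receptors, Pdgfrb had 244, 250 and 218 CPM in knockdown-labelled replicates 1 to 3, against 315, 309 and 270 CPM in wild type replicates 1 to 3. All knockdown-labelled values lay below all wild type ones, although knockdown-labelled replicate 2 and wild type replicate 3 were near each other. The log2 fold change was -0.33 (SE 0.09, 95% confidence interval -0.54 to -0.11) and did not pass the edgeR test (adjusted p = 0.180). DESeq2 gave an adjusted p of 0.0284. Pdgfrb is also made by fibroblasts. The ligand gene Pdgfb, made by endothelial cells, had 84.6 ± 13.0 CPM in knockdown-labelled and 118 ± 11.3 CPM in wild type lungs (SD, n = 3 each; edgeR adjusted p = 0.167). Endothelial genes were lower beside it: 16 genes summed to 2631 to 3268 CPM in knockdown-labelled and 3714 to 4237 CPM in wild type lungs, with all 16 negative, where 8353 of the 17728 tested genes were, and a median of -0.41. Of these 0 passed the edgeR test, 12 were lower at an unadjusted p under 0.05, where 8.52% of all tested genes were, and DESeq2 called 11 lower, where it called 2.72% of all genes lower. Their part in the lower Pdgfrb was not tested.

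Notch3, the mural Notch receptor, had 164, 144 and 139 CPM in knockdown-labelled replicates 1 to 3, against 170, 170 and 146 CPM in wild type replicates 1 to 3. Each group held high and low libraries and they overlapped, with -0.12 on the log2 scale (95% confidence interval -0.35 to 0.10, edgeR adjusted p = 0.564). Among 13 other Notch pathway genes 0 passed the edgeR test (6 had an unadjusted p under 0.05, where 17.0% of all tested genes did, 4 of them lower, where 8.52% did). DESeq2 called 2 lower, where it called 2.72% of all genes lower. The smallest p belonged to the ligand gene Jag2, the receptor gene Notch4, and the ligand genes Dll4 and Dll1, each with lower means in knockdown-labelled lungs (log2 fold changes of -0.35, -0.36, -0.34 and -0.46). The list median was -0.09.

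Cspg4 encodes NG2, a proteoglycan of the pericyte surface that also binds PDGF. It had 95.5, 80.7 and 79.6 CPM in knockdown-labelled replicates 1 to 3, against 85.4, 97.7 and 68.9 CPM in wild type replicates 1 to 3. The wild type libraries held both the highest and the lowest value. The log2 fold change of 0.02 had a 95% confidence interval of -0.31 to 0.35 (edgeR adjusted p = 0.960), and its sign turned in 4 of the 18 alternative settings. Some Schwann and oligodendrocyte lineage cells make Cspg4 as well. The genes of these glia that were tested, 6 of 8, summed to 149 to 210 CPM in knockdown-labelled and 182 to 226 CPM in wild type lungs. Most of that sum was Erbb3, with 190, 135 and 152 CPM in knockdown-labelled and 163, 211 and 158 CPM in wild type replicates. The other 5 genes were positive, the median of the 6 was 0.29, and 0 of the 6 passed in edgeR or DESeq2 or had an unadjusted p under 0.05. Sox10, a transcription factor of these glia, had 2.89, 2.04 and 26.1 CPM in knockdown-labelled and 2.46, 1.97 and 3.38 CPM in wild type replicates, so that knockdown-labelled replicate 3 alone was high. Olig1 and Olig2 had too few counts to be tested. The part of glia in the Cspg4 values was not tested.

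Rgs5, a GTPase activator that damps signalling from G protein-coupled receptors in mural cells, was the most variable of the 8. It had 83.9, 48.1 and 103 CPM in knockdown-labelled replicates 1 to 3, against 34.2, 60.6 and 67.2 CPM in wild type replicates 1 to 3. Its highest value was 3.02 times its lowest, and knockdown-labelled replicate 2 lay within the wild type range. The coefficient of variation was 35.7% in knockdown-labelled and 32.3% in wild type lungs, and the log2 fold change of 0.54 had a 95% confidence interval of -0.24 to 1.32 (edgeR adjusted p = 0.460). Smooth muscle genes, all 16 tested, summed to 2053, 2130 and 2950 CPM in knockdown-labelled and 2297, 2308 and 2623 CPM in wild type replicates. Replicate 3 was highest in each group for both that sum and Rgs5. Knockdown-labelled replicate 1 had the lowest sum of the 6 libraries, while its Rgs5 of 83.9 CPM was above every wild type value. Of the 16 genes 11 were positive, where 9375 of the 17728 tested genes were, with a median of 0.28. In edgeR 0 of them passed. DESeq2 called 2 higher and 1 lower, where it called 2.10% and 2.72% of all genes. The part of smooth muscle in the Rgs5 values was not tested. Of 9 other R4 family Rgs genes 6 were tested, 0 passed in edgeR or DESeq2, and 0 had an unadjusted p under 0.05. Rgs4, another member of that family, had 22.0 ± 8.74 CPM in knockdown-labelled and 20.6 ± 4.26 CPM in wild type lungs (SD, n = 3 each).

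Higd1b and Cox4i2 encode mitochondrial proteins that mark pericytes in mouse lung. Cox4i2, a form of cytochrome c oxidase subunit IV linked to oxygen sensing in lung vessels, had 30.8, 32.1 and 28.2 CPM in knockdown-labelled replicates 1 to 3, against 41.4, 34.9 and 33.7 CPM in wild type replicates 1 to 3. The groups did not overlap, but 32.1 and 33.7 CPM were close. Its log2 fold change was -0.27 (95% confidence interval -0.52 to -0.03, edgeR adjusted p = 0.260). Higd1b, of the hypoxia-inducible domain family, had 40.2, 26.8 and 24.4 CPM in knockdown-labelled replicates 1 to 3, against 39.7, 42.9 and 33.5 CPM in wild type replicates 1 to 3. Knockdown-labelled replicate 1 was in the wild type range and the other two were below it. The log2 fold change was -0.35 (95% confidence interval -0.81 to 0.12, edgeR adjusted p = 0.428). With heart muscle level as a covariate it was -0.03 (edgeR adjusted p = 0.983), but that level cannot be told apart from the label here.

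The broadly expressed relatives of this pair had the opposite sign. Cox4i1, the common form of subunit IV, had 273 ± 20.1 CPM in knockdown-labelled and 213 ± 11.6 CPM in wild type lungs (SD, n = 3 each; edgeR adjusted p = 0.145). The FPKM ratio of Cox4i2 to Cox4i1 was 0.221, 0.216 and 0.220 in knockdown-labelled replicates and 0.379, 0.342 and 0.296 in wild type replicates. The knockdown-labelled ratios were nearly the same as each other and lower than in every wild type lung. The log2 ratio differed by -0.62 (exact two-sided permutation p = 0.1, the smallest possible, and 0.125 adjusted over 5 ratios). The ratio of Higd1b to Higd1a was 3.81, 2.67 and 2.50 in knockdown-labelled and 4.69, 4.65 and 4.03 in wild type replicates, a log2 difference of -0.60 with the same exact p. Of 13 relatives and other cytochrome c oxidase subunit genes 12 were tested, 12 were positive with a median of 0.39, and 0 passed in edgeR (11 had an unadjusted p under 0.05, all higher, where 8.48% of all tested genes did). DESeq2 called 5 of them higher, where it called 2.10% of all genes higher. Heart muscle is rich in mitochondria, and the heart muscle sums differ between the groups as given above. Their part in these ratios was not tested.

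**Figure D4:**
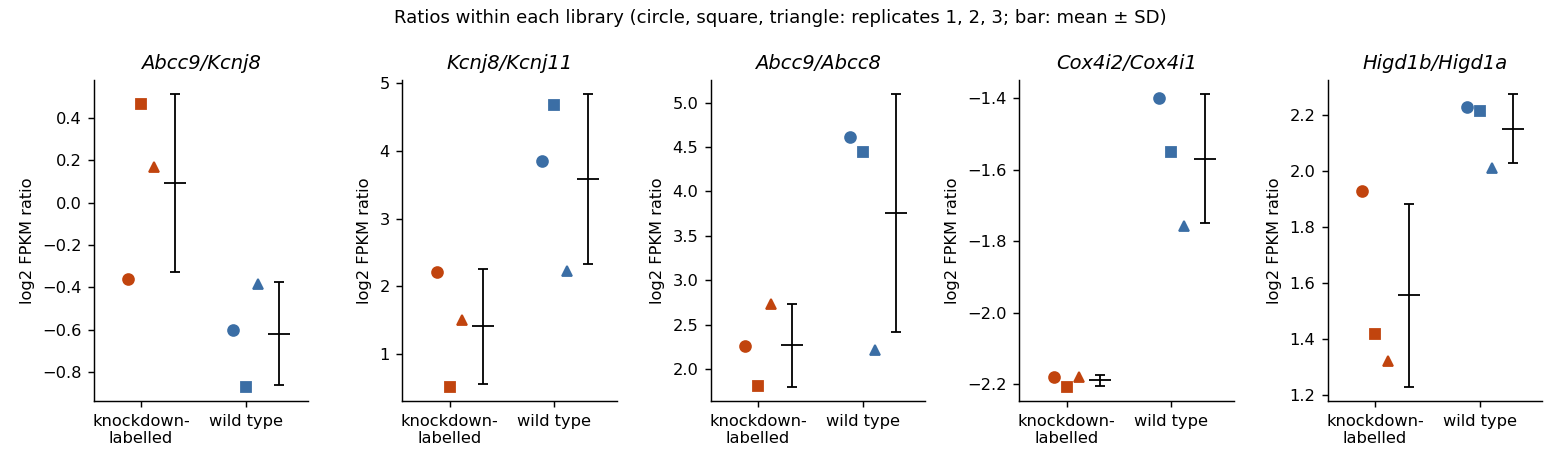
Log2 FPKM ratio within each library (y axis) for the 5 gene pairs, knockdown-labelled in orange at left and wild type in blue at right, with the mean ± SD beside the points. The Cox4i2 to Cox4i1 ratios of the knockdown-labelled lungs lie close together at -2.21 to -2.18, below the wild type values of -1.76 to -1.40, and only the Abcc9 to Abcc8 ratio overlaps between the groups.

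The ratios of the vascular to the other K-ATP subunits completed the 5. That of Kcnj8 to Kcnj11 was 4.62, 1.44 and 2.86 in knockdown-labelled and 14.4, 25.6 and 4.67 in wild type replicates, a log2 difference of -2.17 (exact two-sided permutation p = 0.1). Its groups were barely apart, at 4.62 in knockdown-labelled replicate 1 and 4.67 in wild type replicate 3. That of Abcc9 to Abcc8 was 4.78, 3.50 and 6.67 in knockdown-labelled and 24.4, 21.7 and 4.63 in wild type replicates, and overlapped between the groups (log2 difference -1.49, exact two-sided permutation p = 0.3). For both ratios the lowest wild type value was in replicate 3.

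Other genes used as pericyte markers were spread around the 8. Of 20, all tested, 0 passed the edgeR test. At an unadjusted p under 0.05, 8 were lower in knockdown-labelled lungs and 2 higher, where 8.52% and 8.48% of all tested genes were. DESeq2 called 4 lower and 1 higher, where it called 2.72% of all genes lower and 2.10% higher. The same numbers, 8 lower and 2 higher, had groups that did not overlap, where 12.4% and 10.8% of all tested genes did. The median log2 fold change was -0.18. Gucy1a1, a subunit of the nitric oxide receptor, had 293 ± 27.3 CPM in knockdown-labelled and 403 ± 15.3 CPM in wild type lungs (SD, n = 3 each; edgeR adjusted p = 0.119). Tbx2, a transcription factor made throughout the lung mesenchyme, had 424 ± 25.5 CPM in knockdown-labelled and 570 ± 60.8 CPM in wild type lungs. The scaffold gene Pdzd2 had 254.7 ± 36.0 CPM in knockdown-labelled and 342 ± 24.3 CPM in wild type lungs. The aminopeptidase gene Anpep stood the other way, with 59.7 ± 13.7 CPM in knockdown-labelled and 38.6 ± 3.38 CPM in wild type lungs (log2 fold change 0.63, edgeR adjusted p = 0.167). Ndufa4l2, a mitochondrial gene that marks the same cells as Higd1b and was named after its values were seen, had 150, 88.3 and 90.5 CPM in knockdown-labelled and 93.4, 102 and 69.7 CPM in wild type replicates. Its high library was knockdown-labelled replicate 1, which was also the highest knockdown-labelled one for Higd1b, Kcnj8, Cspg4 and Notch3. For Abcc9, Pdgfrb, Rgs5 and Cox4i2 another knockdown-labelled library was highest. The same replicate 1 was highest for some lung identity genes too, such as Sftpc and Sftpb, so this was not particular to pericyte genes.

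Genes of pericyte recruitment had a median of -0.28, with 15 of 17 negative, where 8353 of the 17728 tested genes were. At an unadjusted p under 0.05, 7 were lower and 1 higher, where 8.52% and 8.48% of all tested genes were. In edgeR 0 passed, and DESeq2 called 6 lower, where it called 2.72% of all genes lower. The sphingosine phosphate receptor gene S1pr3 had 127 ± 3.35 CPM in knockdown-labelled and 159 ± 10.03 CPM in wild type lungs. Tek, the angiopoietin receptor gene of endothelium, had 103 ± 11.4 CPM in knockdown-labelled and 136 ± 4.97 CPM in wild type lungs. The fibroblast receptor gene Pdgfra had 173 ± 20.4 CPM in knockdown-labelled and 228 ± 6.67 CPM in wild type lungs (SD, n = 3 each). Fibroblast genes, 12 of 12 tested, had a median of 0.01, and their sums overlapped (4220 to 5229 CPM in knockdown-labelled and 4187 to 4665 CPM in wild type lungs). The 12 genes were split, with 6 positive and 6 negative. At an unadjusted p under 0.05, 3 were lower and 2 higher, where 8.52% and 8.48% of all tested genes were. Among them 0 passed in edgeR, and DESeq2 called 1 lower, where it called 2.72% of all genes lower. The smallest p belonged to Npnt, Dcn, Meox2 and Col1a1 (log2 fold changes of -0.63, 1.05, -0.27 and 0.38).

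**Figure D5:**
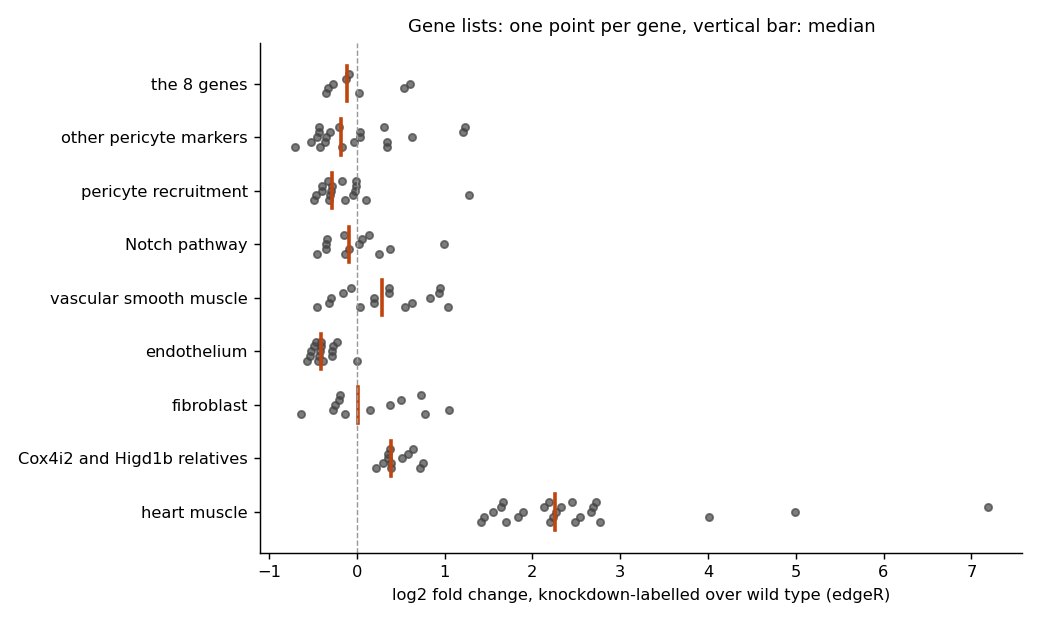
Log2 fold change of knockdown-labelled over wild type lungs (x axis, edgeR) for each tested gene of 9 lists, with the median as an orange bar. The 8 genes and the other pericyte markers lie on both sides of 0, the endothelial genes lie below 0 with a median of -0.41, and the heart muscle genes lie above 0 with a median of 2.25.

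Likeness of the profiles across the 6 libraries was described by the root mean square distance between centred log2 CPM values. Pdgfrb and Cox4i2 were the most alike of the 8, at a distance of 0.07. Seen from Cox4i2, Pdgfrb was the 81st nearest of 17727 other genes. Cspg4 and Notch3 followed at 0.11, where Cspg4 was only the 2421st nearest gene to Notch3, and Notch3 the 550th nearest to Cspg4. Rgs5, the most variable of the 8, was the farthest from the rest. It lay at 0.47 from Abcc9, its 2581st nearest gene, and at 0.54 to 0.69 from the other 6. Abcc9 came next: its nearest among the 8 was Cspg4 at 0.35, the 7415th nearest gene, and Kcnj8 came 13014th at 0.45. Among genes with a mean of at least 1 FPKM and a symbol that is no predicted model, those nearest to Abcc9 were Macrod1, Snx10 and Fmc1, at 0.06 to 0.07 with log2 fold changes of 0.72, 0.58 and 0.58. Those nearest to Kcnj8 were Klc3, Rpain and Erbb3 (0.05 to 0.07), and those nearest to Pdgfrb were Map4k3, Sh2d3c and Epas1 (0.02 to 0.03). Notch3 had Ipmk, Synm and Magi1 as its nearest genes, and Cspg4 had Sftpb, Olfml2a and Tmem268. For Higd1b they were Hsd11b1, Lama5 and Map3k15, and for Cox4i2 Zfp560, Arhgef26 and Impdh1. The nearest to Rgs5 among such genes, Smoc2, Scg5 and Pi16, were farther off, at 0.16 to 0.17.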

How the data were processed

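Poly(A) RNA-seq libraries of 6 lungs were used, 3 per group by the genotype label. The tools listed in the submitters' processing notes are HISAT2 2.0.1, HTSeq 0.6.1 and cutadapt 1.9.1, with no roles. Genome build, annotation and strand setting were not given in the sources used here. Raw counts per gene were deposited by the authors. FPKM values stand beside them, per the file headers. The deposited FPKM were recomputed from the counts, library totals and exonic sizes, and agreed within 0.0051. Every row names a gene, so no unassigned reads entered the totals.

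edgeR 4.0.16 in R 4.3.3 was run on the counts (filterByExpr, 17728 genes kept, TMM, group as the only term, quasi-likelihood test, two-sided), with Benjamini-Hochberg adjustment over all tested genes and a threshold of 0.05. CPM use TMM factors. SE is the absolute log2 fold change over the square root of F. All 8 genes passed the filter. limma 3.58.1 and DESeq2 1.42.0 gave alternatives, and the edgeR, DESeq2 and limma-voom fits were tested on simulated data. The simulated counts were drawn with the dispersions that edgeR had fitted, and there DESeq2 made more false calls than edgeR or limma-voom. Because that setting is edgeR's own model, it cannot rank the tools on the real libraries. Within-group libraries differed by more than counting noise. A floor of 3 counts was 0.156 to 0.209 CPM, so depth did not limit these genes. Overlapping listed genes had at most 17 counts (Gm17276, over Notch3), and 3 over Abcc9.

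The members, lists, ratios and alternatives were chosen with earlier results of these data known. Beside the 8, genes named are Prmt5, Kcnj11, Abcc8, up to 4 with the smallest p of a list, and the 3 nearest profiles per gene with mean FPKM of at least 1. Higd1a is named as part of a ratio, Xist and Ddx3y for embryo sex, Gm17276 for its overlap with Notch3, and Olig1 and Olig2 as untested. Sftpc, Sftpb, Ldhb, Cmas and Ndufa4l2 were named after their values were seen.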

Additional observations from a re-analysis of the deposited data

How the results depend on the processing

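Alternatives were median-of-ratios, upper-quartile or no scaling factors, 2 other filters, DESeq2, limma on log2(FPKM + 1) or log2(FPKM + 0.1), limma-voom with library weights, robust edgeR, heart muscle level or embryo sex as a covariate, and leaving out each library. The number of genes called, 6 in edgeR, was 81 with no filter, 854 in DESeq2, 25 in limma-voom, 3 in limma on log2(FPKM + 0.1), 15 in robust edgeR, 1 with heart muscle level and 0 with embryo sex as a covariate (2524 at an unadjusted p under 0.05), and 0 to 17 with a library left out (17 without wild type replicate 3). The number of the 8 genes called, 0 in edgeR, was 1 with no filter, 2 in DESeq2 and 1 in limma-voom. Abcc9 passed in these 3 settings, with log2 fold changes of 0.61, 0.61 and 0.64, and Pdgfrb passed in DESeq2 at -0.33. Over all 18 alternatives Abcc9 stayed between 0.52 and 0.66. With heart muscle level as a covariate the sign turned for Kcnj8 (0.31) and Notch3 (0.064), and Cspg4 was 0.35. For Cspg4 it turned in limma-voom (-0.012) and with embryo sex as a covariate (-0.0047). With a library left out Kcnj8 ranged from -0.29 to 0.073, Cspg4 from -0.10 to 0.14, Notch3 from -0.19 to -0.07, and Prmt5 from -0.13 to 0.0069 (without knockdown-labelled replicate 1). Rgs5 ranged from 0.29 (without knockdown-labelled replicate 3; 0.30 without wild type replicate 1) to 0.79 (without knockdown-labelled replicate 2), Higd1b from -0.59 (without knockdown-labelled replicate 1) to -0.21 (without knockdown-labelled replicate 3), Cox4i2 from -0.33 to -0.18 (without wild type replicate 1) and Abcc8 from 1.31 to 2.92 (without wild type replicate 3). With embryo sex as a covariate Abcc9 was 0.65. Kcnj11 passed in DESeq2 alone. The 5 log2 ratios kept their sign in CPM and, in an alternative added after seeing the data, without each library. The causes of these moves were not tested. No paired analysis was run, because replicates were numbered within each group and the labels do not pair libraries between the groups.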
